A study of Mus musculus with 28 samples.

Results

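Regions carrying called H3K27ac peaks in mouse spermatogonial libraries but in no library of meiotic or postmeiotic cells were examined. Overlapping peaks of the 12 H3K27ac libraries were merged into 129187 regions, and a region was kept when it was called in at least 4 of the 8 Thy1+ and c-Kit+ libraries, in none of the 4 libraries of pachytene spermatocytes (PS) and round spermatids (RS), and overlapped no peak of the 16 input libraries of chromatin without immunoprecipitation. These criteria left 454 regions, 3.01% of the 15079 regions called in at least 4 of the 8 libraries. The 454 regions, called members here, were chosen by these peak calls, so their absence from the adult libraries is a description and was not tested.

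The study profiled H3K27ac by ChIPmentation, in which a transposase inserts the sequencing adapters into immunoprecipitated chromatin. The mice were of the C57BL/6 background, and the cells were germ cells of the testis obtained by magnetic sorting or by sedimentation through a gradient. Mice at postnatal day 7, either wild type (WT) or with a knockout of Scml2 (KO), gave the Thy1+ and the c-Kit+ spermatogonia, and each of these 4 groups had 2 libraries. The PS and RS libraries, also 2 each, came from adult KO mice, so stage and age cannot be told apart in any contrast with them, nor can genotype in a contrast of WT spermatogonia with them. H3K27ac libraries of WT PS and RS were not analysed here. The labels do not say whether the replicates came from separate animals or pools, so the p-values below measure the spread between these libraries, which may be technical.

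H3K27ac marks active promoters and enhancers, the DNA elements from which gene expression is switched on. Thy1 is used to enrich undifferentiated spermatogonia, which include the stem cells of the testis, and c-Kit marks spermatogonia that have begun to differentiate. SCML2 is a Polycomb-related protein of the germ line.

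The promoters among the members differed widely in base composition, which the following stretches show. Each runs from 250 bases before to 50 bases after a transcription start, 5′ to 3′ on the gene's own strand, from the RefSeq annotation of GRCm38.p6, the assembly that mm10 names. Capitals mark CpG, the dinucleotide at which mammalian DNA is methylated and which is dense in CpG islands. Arnt2 (chr7:84409989-84410288, − strand) encodes a basic helix-loop-helix PAS transcription factor, Usp13 (chr3:32817376-32817675, + strand) a deubiquitinase and Ephb2 (chr4:136835963-136836262, − strand) a receptor tyrosine kinase for ephrin-B ligands. Prickle2 (chr6:92534812-92535111, − strand) encodes a planar cell polarity protein, Lama2 (chr10:27616893-27617192, − strand) the laminin alpha 2 chain of basement membranes, and Col3a1 (chr1:45311288-45311587, + strand) the chain of type III collagen. Apart from Prickle2, of whose window 127 bases lay inside the member, each window lay entirely inside it.
Arnt2: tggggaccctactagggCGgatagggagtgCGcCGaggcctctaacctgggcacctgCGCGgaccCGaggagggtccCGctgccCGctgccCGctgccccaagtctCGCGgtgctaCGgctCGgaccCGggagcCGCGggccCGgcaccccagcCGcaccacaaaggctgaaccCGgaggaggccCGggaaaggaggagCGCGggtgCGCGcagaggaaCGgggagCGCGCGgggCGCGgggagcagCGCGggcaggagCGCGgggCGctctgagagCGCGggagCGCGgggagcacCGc
Usp13: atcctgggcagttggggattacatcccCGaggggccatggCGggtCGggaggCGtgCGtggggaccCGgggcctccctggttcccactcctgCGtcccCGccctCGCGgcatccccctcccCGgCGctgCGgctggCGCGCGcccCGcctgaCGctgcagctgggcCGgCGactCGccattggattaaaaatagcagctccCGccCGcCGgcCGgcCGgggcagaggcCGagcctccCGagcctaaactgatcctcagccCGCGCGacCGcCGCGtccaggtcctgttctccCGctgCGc
Ephb2: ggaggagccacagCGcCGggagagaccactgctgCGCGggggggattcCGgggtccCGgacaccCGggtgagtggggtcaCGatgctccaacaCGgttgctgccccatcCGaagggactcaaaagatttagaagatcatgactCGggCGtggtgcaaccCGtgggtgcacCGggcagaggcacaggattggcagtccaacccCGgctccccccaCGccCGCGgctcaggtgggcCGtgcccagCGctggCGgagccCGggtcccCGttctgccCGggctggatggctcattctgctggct
Prickle2: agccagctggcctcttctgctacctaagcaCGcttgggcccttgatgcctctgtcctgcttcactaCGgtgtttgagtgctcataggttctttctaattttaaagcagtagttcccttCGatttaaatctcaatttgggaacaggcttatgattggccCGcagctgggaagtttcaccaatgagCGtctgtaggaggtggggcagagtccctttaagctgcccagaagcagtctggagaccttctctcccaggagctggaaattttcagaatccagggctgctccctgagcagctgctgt
Lama2: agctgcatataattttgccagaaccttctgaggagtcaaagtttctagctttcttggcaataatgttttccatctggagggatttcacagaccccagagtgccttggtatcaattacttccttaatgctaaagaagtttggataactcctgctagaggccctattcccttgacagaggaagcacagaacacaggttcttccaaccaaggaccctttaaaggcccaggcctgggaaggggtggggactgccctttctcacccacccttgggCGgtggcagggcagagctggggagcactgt
Col3a1: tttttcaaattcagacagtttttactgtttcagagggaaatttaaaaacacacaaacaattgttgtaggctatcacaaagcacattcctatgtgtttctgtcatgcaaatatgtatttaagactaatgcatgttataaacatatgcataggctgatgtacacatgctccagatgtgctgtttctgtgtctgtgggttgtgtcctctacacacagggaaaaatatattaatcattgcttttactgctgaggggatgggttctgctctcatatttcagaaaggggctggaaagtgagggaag
The Arnt2 stretch held 40 CpG and that of Usp13 36, against 24 in Ephb2, 5 in Prickle2, 1 in Lama2 and 0 in Col3a1. Their GC content was 76.7%, 73.7%, 68.7%, 51.3%, 50.3% and 37.7% in the same order.

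Of the 99 members within 1000 bp of a listed transcription start, 54 had such a RefSeq stretch. In all, 72 stretches of 66 genes overlapped a member. Some nearly repeated another, as did those of Gm31536. Others lay mostly outside the member, as did that of Zfp454 with 7 bases inside. The 72 stretches held a median of 13 CpG, with a range from 0 to 46. The median was 23 over the 10057 stretches in regions called in all 12 libraries, and 5 over the 1626 stretches in regions called in all 4 adult libraries and in no spermatogonial one. Of the 72 stretches, 22 had 20 or more CpG and 17 had under 5, so members included both CpG-rich and CpG-poor promoters. Short motifs were searched on both strands as exact letters. GGGCGG, the letters of a Sp and KLF factor site, occurred in 51.4% of the 72 stretches, in 69.4% of those called in all 12 libraries and in 35.6% of all 32817 promoter stretches. GGAATG, the core read by TEAD factors, occurred in 18 of 72 (25.0%), against 11.1% of those called in all 12 libraries and 14.7% of all stretches. CCGGAAGT, an ETS factor site, was in 0 of 72, in 9.86% of those called in all 12 libraries and in 3.89% of all stretches. TATAAA was found in 6.94% of the member stretches, in 5.38% of those called in all 12 libraries and in 13.6% of all. These matches describe the letters in the stretch and were not tested.

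Most members lay away from promoters. By the class of location in the authors' tables, 198 members (43.6%) lay in introns, 107 (23.6%) at promoters, 92 (20.3%) between genes, 31 upstream of a gene and 26 in exons. Within 1000 bp of a listed start lay 99 members (21.8%), whereas 68.2% of the 14614 regions called in at least 4 of the 8 libraries and in an adult library did so. Those 14614 include the 9239 regions called in all 12 libraries, of which 86.2% lay that close to a start. The share was not computed for regions with as many calls as the members, so the gap is not particular to the lack of an adult call. The members were narrow, with a median width of 705.5 bp and a range from 205 to 2613 bp, against a median of 2123 bp for regions with an adult call. Peaks of all 12 libraries were merged, so adult peaks and calls in more libraries add to the width of the latter. Among regions without input overlap called in 4 of the 8, the median width was 621 bp with no adult call and 672.5 to 1661 bp with 1 to 4. Adult peaks were often close by. The nearest one lay 22 to 937159 bp away (median 7174.5 bp) and within 1000 bp for 111 members (24.4%). Members at promoters were farther from it (median 27187 bp) than distal ones (median 5063 bp). On the X chromosome lay 12 members (2.64%), close to the 2.47% of the 14614 regions with an adult call.

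**Figure D1:**
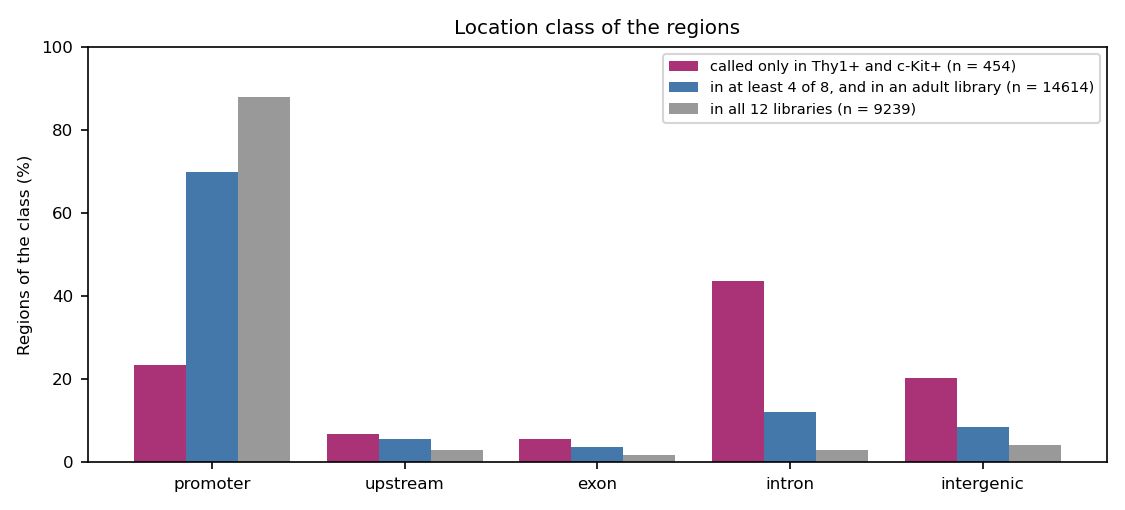
Share of regions (%, y axis) in each location class of the authors' tables (x axis), for the 454 members, for regions called in at least 4 of the 8 spermatogonial libraries and in an adult library, and for regions called in all 12 libraries. Introns hold 43.6% of the members, and promoters 23.6%. The regions with an adult call include those called in all 12 libraries.

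Signal in the members was near the calling limit. Each library's value is the fold enrichment of its highest peak in the region, which is the height of the signal plus 1 over a background plus 1 that was constant within a library. Over the 8 libraries the members' 2171 called values corresponded to heights from 5 to 27 overlapping fragments, with a median of 8. The median over members of the median fold enrichment was 4.94, against 7.44 in regions with an adult call and 10.1 in regions called in all 12 libraries. Those regions were mostly called in more libraries. Among regions without input overlap called in 4 of the 8, the median was 4.81 with no adult call and 4.72 to 4.98 with 1 to 4 adult calls. Among those called in all 8, it was 5.75 with no adult call, 5.80 to 6.49 with 1 to 3 and 10.0 with 4. Members' medians ranged from 3.54 to 9.43 and their single values from 3.31 to 14.2. The lowest peak called in a library had a fold enrichment of 3.31 to 3.84 in spermatogonia and 3.05 to 3.25 in the adult cells, so a signal below about that height was not detectable in the adult libraries.

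Few members were called throughout. Of the 454, 254 were called in 4 libraries, 102 in 5, 54 in 6, 31 in 7 and 13 in all 8. In Thy1+ WT, 203 (44.7%) and 158 (34.8%) were called in replicates 1 and 2, and in c-Kit+ WT 350 (77.1%) and 192 (42.3%). Thy1+ KO had 389 (85.7%) and 255 (56.2%), and c-Kit+ KO had 398 (87.7%) and 226 (49.8%). Replicate 1 had more members than replicate 2 in each of the 4 groups, and it also had more peaks in each. The spermatogonial libraries held 17877 to 36362 peaks and the adult ones 63322 to 73316. The 3 libraries with the most peaks, replicate 1 of c-Kit+ KO, Thy1+ KO and c-Kit+ WT, were also those with the most members. How much of the members' distribution over libraries came from depth was not tested, and read depth is unknown for these files.

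**Figure D2:**
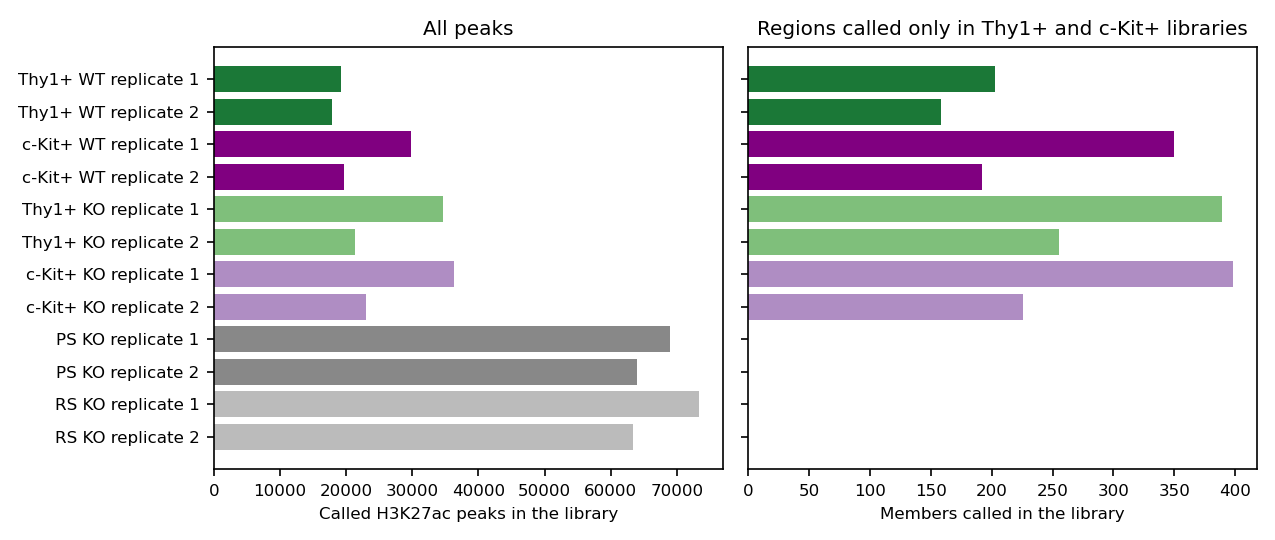
Called H3K27ac peaks (left, number) and members called (right, number) in each of the 12 H3K27ac libraries (y axis). Bars are single libraries, and the adult libraries have 0 members by the rule. Replicate 1 exceeds replicate 2 in both panels in each spermatogonial group.

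The 13 members called in all 8 libraries lay at 9 promoters within 1000 bp of a start and at 4 sites farther away. The median over the 8 libraries was highest at Cdh11, the gene of cadherin-11, an adhesion molecule known from mesenchymal cells (chr8:102783833-102786003, promoter class). Fold enrichment there was 6.81 and 6.03 in Thy1+ WT, 7.41 and 6.82 in c-Kit+ WT, 11.6 and 7.03 in Thy1+ KO and 5.67 and 3.50 in c-Kit+ KO, for replicates 1 and 2 in each group (6.87 ± 2.29, SD, n = 8). The highest value was in Thy1+ KO and both lowest were in c-Kit+ KO, while Thy1+ KO replicate 2 lay inside the WT range. The nearest adult peak was 387288 bp away.

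The promoter of Ephb2 (chr4:136835015-136836538), whose CpG-rich stretch is shown above, had 8.38 and 6.64 in Thy1+ WT, 7.98 and 4.34 in c-Kit+ WT, 10.1 and 6.40 in Thy1+ KO and 4.73 and 4.08 in c-Kit+ KO (6.58 ± 2.16, SD, n = 8). Both c-Kit+ KO values lay below all 4 Thy1+ values, and the other groups overlapped. Another member, 26634 bp from the nearest listed start, was also assigned to Ephb2 and was called in 6 libraries.

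Lama2 (chr10:27616324-27617217, promoter) had 5.76 and 6.64 in Thy1+ WT, 5.70 and 4.34 in c-Kit+ WT, 10.1 and 7.67 in Thy1+ KO and 7.57 and 5.25 in c-Kit+ KO (6.63 ± 1.81, SD, n = 8). Both Thy1+ KO values were above all others. Matn2, which encodes the matrix protein matrilin-2 (chr15:34306359-34307319, promoter), had 5.76 and 6.03 in Thy1+ WT, 7.98 and 4.96 in c-Kit+ WT, 10.6 and 6.40 in Thy1+ KO and 7.57 and 4.66 in c-Kit+ KO (6.75 ± 1.94, SD, n = 8). Both Thy1+ KO values lay above both Thy1+ WT values, the c-Kit+ groups overlapped, and in 3 of the 4 groups replicate 1 was the higher library.

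Clmp, the gene of an adhesion molecule of cell junctions (chr9:40685989-40686662, promoter), had 6.29 and 6.03 in Thy1+ WT, 3.99 and 5.58 in c-Kit+ WT, 12.2 and 7.67 in Thy1+ KO and 3.31 and 3.50 in c-Kit+ KO (6.07 ± 2.89, SD, n = 8). All 4 Thy1+ values lay above all 4 c-Kit+ values. Arhgef26, for a guanine nucleotide exchange factor (chr3:62338764-62339942, promoter), had 5.24 and 4.83 in Thy1+ WT, 5.13 and 5.58 in c-Kit+ WT, 10.1 and 8.31 in Thy1+ KO and 5.20 and 3.50 in c-Kit+ KO (5.99 ± 2.14, SD, n = 8). Thy1+ KO stood above the other groups, which overlapped.

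Arnt2 (chr7:84409415-84410516, promoter) varied less, with 5.24 and 6.03 in Thy1+ WT, 5.13 and 5.58 in c-Kit+ WT, 5.57 and 4.48 in Thy1+ KO and 7.57 and 4.66 in c-Kit+ KO (5.53 ± 0.964, SD, n = 8). Prickle2 (chr6:92534201-92534938, promoter) had a mean of 5.97 ± 1.31 (SD, n = 8) and Usp13 (chr3:32817220-32818226, promoter) one of 5.44 ± 1.60 (SD, n = 8). The means of the CpG-poor Prickle2 and Lama2 promoters and of the CpG-rich Arnt2 and Usp13 promoters all lay between 5.44 and 6.63. These promoters were chosen by their calls, so no relation of signal to CpG content can be read from them. The Prickle2 gene has other starts, and a peak within 1000 bp of one of its starts was called in all 4 adult libraries, although the nearest adult peak was 27222 bp from the member.

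The other 4 of the 13 lay over 1000 bp from a listed start. D630033O11Rik (chr9:43260713-43263325) was the widest member, 2613 bp, and had a mean of 6.45 ± 0.930 (SD, n = 8). An adult peak lay 241 bp from it. Inhba, which encodes the subunit of activin A (chr13:16017294-16019418, intron), had 5.24 and 5.43 in Thy1+ WT, 6.84 and 4.96 in c-Kit+ WT, 6.08 and 7.03 in Thy1+ KO and 6.15 and 5.25 in c-Kit+ KO (5.87 ± 0.777, SD, n = 8). Both Thy1+ KO values lay above both Thy1+ WT values, and the c-Kit+ groups overlapped with each other. A further Inhba intron region was called in 4 libraries, and the Inhba promoter itself was called in c-Kit+ WT replicate 1 and Thy1+ KO replicate 1, and in no adult library. Introns of Tenm4, the gene of a transmembrane teneurin (chr7:96212726-96213865), and Fam211a (chr11:62636728-62638638) held the remaining members, with means of 6.35 ± 2.27 and 5.33 ± 1.28 (SD, n = 8).

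**Figure D3:**
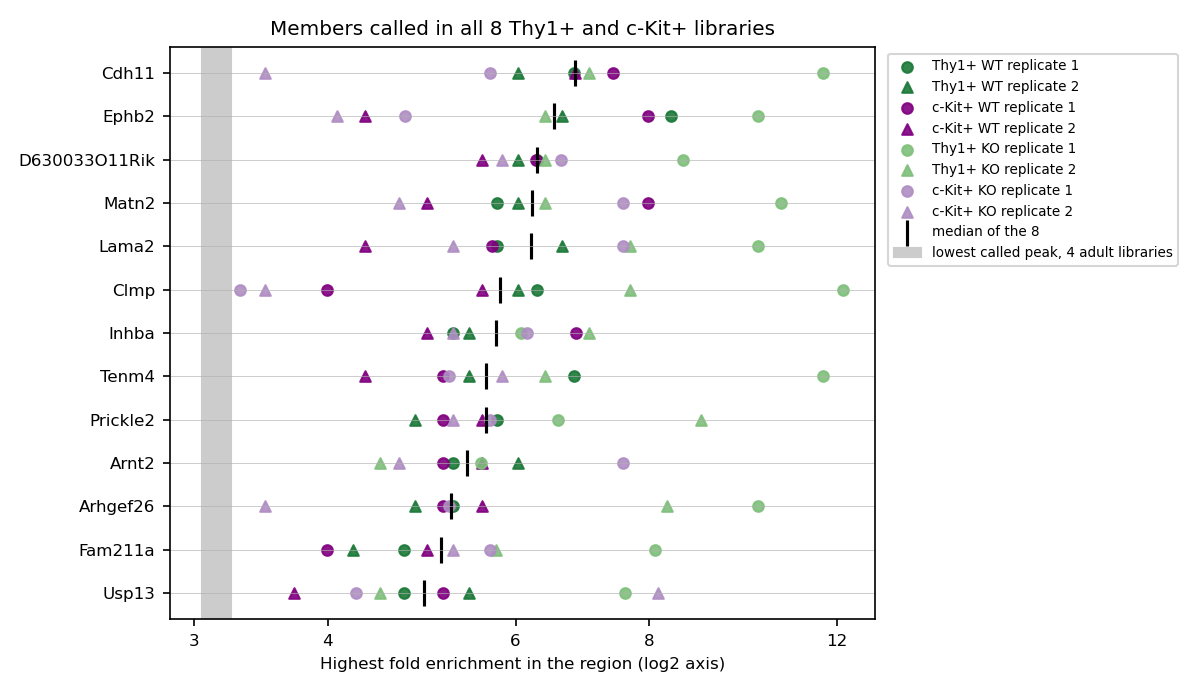
Fold enrichment (x axis, log2 scale) of the 13 members called in all 8 Thy1+ and c-Kit+ libraries (y axis, gene named by the region). Points are single libraries, the black line is the median of the 8 and the grey band spans the lowest peaks called in the 4 adult libraries, 3.05 to 3.25. Thy1+ KO replicate 1 has the highest value in 9 of the 13 members.

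Read by gene, extracellular matrix and adhesion genes led the lists, with 11 of 39 (28.2%), followed by markers of Leydig and interstitial cells with 4 of 15 (26.7%). Over all 19260 genes named in the files, 416 (2.16%) had a member. None of the 31 spermatogonial stem and progenitor genes named in the files had one, and Kit was the only one of 19 differentiation genes (5.26%), and lists of this size are too short to set these counts apart from the share over all genes. Long genes can hold more regions: the median transcript span was 73937.5 bp for genes with a member, 64345 bp for the matrix list and 19992 bp for all genes. No test was made of these shares. The set is therefore not named after these genes and is described here by its rule, as regions called only in Thy1+ and c-Kit+ libraries.

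**Figure D4:**
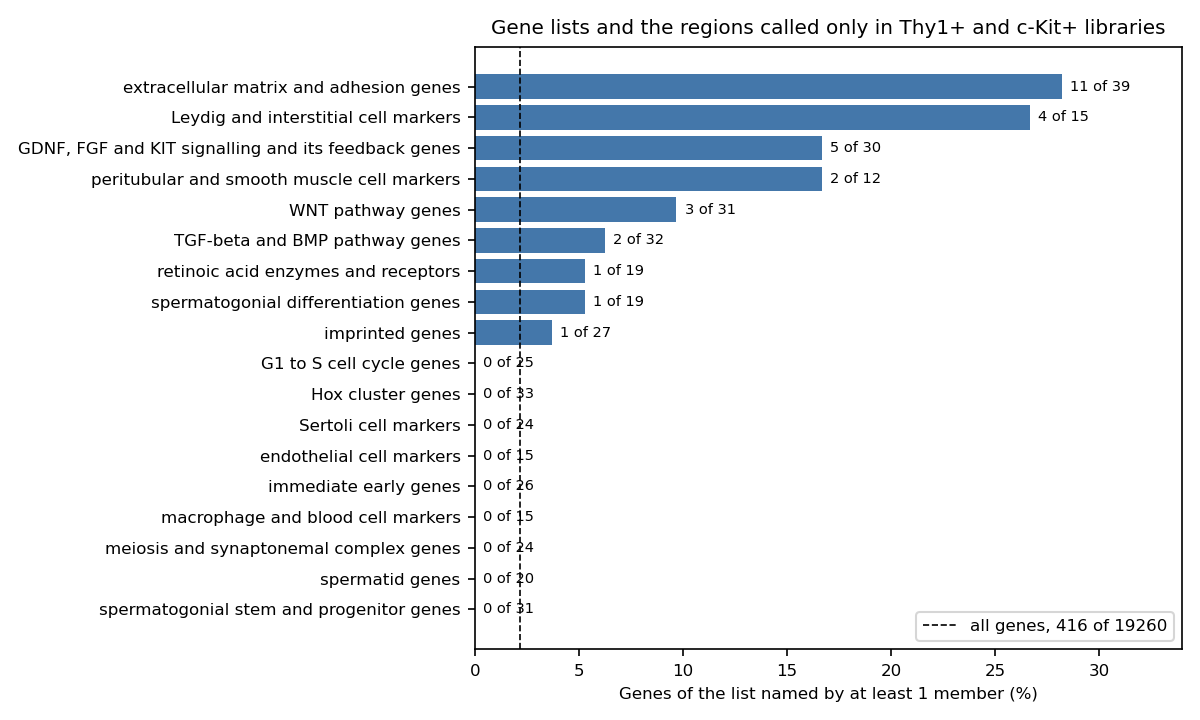
Share of each list's genes that at least 1 member names (%, x axis), for 18 gene lists (y axis), with the number of genes beside each bar. The dashed line is the share of all genes, 416 of 19260. Matrix genes (28.2%) and interstitial markers (26.7%) lead, and 9 lists are at 0.

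The matrix genes were Col1a1, Col1a2, Col3a1, Col4a2, Col5a2, Col6a1, Col6a2, Col18a1, Lama2, Nid1 and Fbn1, which encode collagens, laminin, nidogen and fibrillin and were named by 17 members. Collagen genes as a family, counted after the values were seen, had a member in 12 of 42 cases (28.6%). A Col6a2 region 19359 bp from the nearest start (chr10:76642215-76644691) had 5.24 and 6.03 in Thy1+ WT, 9.62 and 6.40 in Thy1+ KO, 4.73 and 4.08 in c-Kit+ KO, and 5.70 in c-Kit+ WT replicate 1, with no call in replicate 2. The Col3a1 promoter (chr1:45311267-45312486), without a CpG in the stretch above, was called in 7 libraries, at 4.72 in Thy1+ WT replicate 1, 5.70 and 4.96 in c-Kit+ WT, 6.08 and 5.76 in Thy1+ KO and 4.26 and 5.25 in c-Kit+ KO. Both Thy1+ KO values lay above the other 5, of which the highest was 5.70. A region between genes assigned to Col1a2 (chr6:4455754-4457325) was called in 7 libraries at 4.19 to 8.10, all but c-Kit+ KO replicate 2.

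Dlk1, an imprinted gene whose product is a Notch-related membrane protein, had 3 members within 26611 bp. The strongest (chr12:109436302-109437971, 16110 bp from the nearest start) had 8.91 and 5.43 in Thy1+ WT and 11.6 and 9.59 in Thy1+ KO, but 3.42 in c-Kit+ WT replicate 1, 4.26 in c-Kit+ KO replicate 1 and no call in either replicate 2 of c-Kit+. Its 4 Thy1+ values lay above both c-Kit+ values. The Dlk1 promoter was called in 3 Thy1+ libraries and in no c-Kit+ or adult library. Pdgfra, for a growth factor receptor of stromal cells, had an upstream region (chr5:75148406-75149130) at 5.76 in Thy1+ WT replicate 1, 6.58 and 7.03 in Thy1+ KO and 5.20 and 5.25 in c-Kit+ KO, with no call in the other 3 and an adult peak 122 bp away. Nr2f2, a nuclear receptor gene, had 1 member.

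Markers of somatic testis cells were also counted at their promoters, as called within 1000 bp of a listed start. Of 15 interstitial markers, 6 to 11 were called in a spermatogonial library (summed fold enrichment 41.6 to 105) and 6 to 11 in an adult one (30.8 to 86.4), and the steroidogenic genes Cyp17a1, Hsd3b1 and Hsd3b6 were called in none of the 12. The Leydig cell genes Cyp11a1, Star and Lhcgr were called in both c-Kit+ WT libraries, at 6.20 to 7.41, in c-Kit+ KO replicate 1 and in PS, and in no Thy1+ WT library. Star and Lhcgr were also called in Thy1+ KO, and Star in RS. Of 12 peritubular and smooth muscle markers, 2 to 10 were called in spermatogonia (11.8 to 83.0) and 5 to 7 in the adult cells (21.1 to 35.1), with Synpo2 at 0 in all 12. Of 21 Sertoli cell markers, 7 to 15 were called in spermatogonia (50.1 to 118) and 7 to 18 in the adult cells (36.8 to 193), with Gata1 and Krt18 at 0 in all.

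Endothelial markers were called for 2 to 7 of 15 in spermatogonia (11.8 to 40.0) and for 5 to 10 in the adult cells (28.7 to 56.5), with Tie1 and Erg at 0 in all. Macrophage and blood markers were called for 0 to 7 of 15 (up to 39.5) and for 5 to 14 (33.6 to 126), with Cd163 at 0. Matrix gene promoters were called for 30 to 39 of 39 genes in spermatogonia (210 to 497) and for 25 to 33 in the adult cells (180 to 302), and those of Col3a1, Col5a2, Lama2, Nid1, Mmp2 and Cdh1 in no adult library. Whether other cells in the sorted fractions had a part in the members was not tested.

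Of the stem, progenitor and differentiation genes, Kit alone had a member. Stem and progenitor gene promoters were called for 6 to 21 of 30 genes in spermatogonia (summed fold enrichment 57.7 to 195) and for 18 to 22 in the adult cells (182 to 291). The Gfra1 promoter, of the GDNF receptor that stem spermatogonia use, was called in Thy1+ KO replicate 1 alone at 3.54, and Thy1 itself in no library. Kit, which encodes the receptor used to sort the c-Kit+ cells, had a region between genes, 35617 bp from the nearest start (chr5:75539073-75539553), at 4.34 in c-Kit+ WT replicate 2, 5.12 in Thy1+ KO replicate 2 and 4.73 and 5.25 in c-Kit+ KO. It was called in no Thy1+ WT library. An adult peak lay 312 bp from it. The Kit promoter was called in all 4 c-Kit+ libraries, in 2 of the 4 Thy1+ libraries and in all 4 adult libraries, so it is no member.

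Signalling lists held a few members each. Of 30 genes of GDNF, FGF and KIT signalling, 5 (16.7%) had one: Fgfr2, Kit, Dusp5, Akt1 and Gab1, with each called in 4 libraries. The Akt1 region (chr12:112661408-112661961, intron) was called at 5.13 in c-Kit+ WT replicate 1, 5.57 and 4.48 in Thy1+ KO and 5.20 in c-Kit+ KO replicate 1. Of 19 retinoic acid genes, Cyp26b1, for an enzyme that degrades retinoic acid, had 2 members. In the intron region (chr6:84584894-84585862) it was called at 5.43 in Thy1+ WT replicate 2, 6.27 and 3.72 in c-Kit+ WT and 5.67 and 5.83 in c-Kit+ KO, but an adult peak lay 27 bp away.

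Of 31 WNT pathway genes 3 had a member (Tcf7l1, Wnt4 and Nkd1), of 32 TGF-beta and BMP genes 2 (Smad7 and Inhba), of 12 peritubular markers 2 (Tpm1 and Cald1) and of 27 imprinted genes Dlk1. The Wnt4 intron region (chr4:137282698-137284143) was called at 5.76 and 4.83 in Thy1+ WT, 5.13 and 5.58 in c-Kit+ WT and 5.57 in Thy1+ KO replicate 1, so in all 4 WT libraries and in 1 of 4 KO libraries. Immediate early genes (0 of 26), G1 to S cell cycle genes (0 of 25), Hox cluster genes (0 of 33), meiosis genes (0 of 24), spermatid genes (0 of 20), Sertoli (0 of 24), endothelial (0 of 15) and macrophage markers (0 of 15) had no member.

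Genes of distal members had a promoter called in all 4 adult libraries no more often than all genes had. Of 312 genes named by a member over 1000 bp from a start, 223 (71.5%) had a promoter called in at least 4 of the 8 spermatogonial libraries, as had 60.9% of all 17923 genes with a listed start. In all 4 adult libraries 187 of the 312 promoters (59.9%) were called, against 67.1% of all, and 178 (57.1%) had both, against 57.4%. A promoter called in at least 4 spermatogonial libraries and in no adult one was found for 16 (5.13%), against 0.53% of all, and 43 (13.8%) had none in any of the 12, against 16.1%. Promoters that are members themselves enter these counts, and the shares were not tested. Of the 416 genes named by a member, 40 were named by at least 2. The like share over all regions was not computed, and some of these members were close neighbours, as were the 3 of Egflam within 2642 bp. Cdon, a hedgehog co-receptor gene, Col4a2, Col6a2, Dlk1 and Egflam were among the 8 genes with 3.

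Between the cell types, the 13 members called in all 8 libraries showed no change past the threshold. Log2 fold enrichment was compared in limma over the 9502 regions called in all 8, with every library centred on its own median region and with genotype as a covariate. Of the 9502, 103 had an adjusted p under 0.05 (1.08%), 0.81% higher and 0.274% lower in c-Kit+, and 0 of the 13 members did, while 2 of 13 and 1336 of all had an unadjusted p under 0.05. Clmp came closest, at -0.67 ± 0.188 (log2 c-Kit+ over Thy1+, SE, limma adjusted p = 0.0717), lower in c-Kit+ as its values above show. Its adjusted p ranged from 0.0273 without c-Kit+ WT replicate 2 to 0.345 without centring. Ephb2 was at -0.34 ± 0.153 (limma adjusted p = 0.313) and Arnt2 at 0.36 ± 0.185 (limma adjusted p = 0.382), and without centring they were at -0.61 and 0.09. The median over the 13 members was 0.04, and 0.01 over all regions.

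The other 441 members lacked a call in at least 1 library, and the fit could take them only with each missing value set to the lowest fold enrichment called in that library. With that filling, 37 of 454 members (8.15%) had a limma adjusted p under 0.05, beside 5.05% of all 15079 regions tested. Of the 37, 30 were higher in c-Kit+ (4.06% of all regions were) and 7 lower (0.995% of all). A member called in the 4 libraries of 1 cell type entered through that cell type and had to differ, so the count supports nothing about the members. It also rested on the centring. The median region was lower in c-Kit+ than in Thy1+ libraries by 0.23 on the log2 scale over these regions, and without centring, an alternative chosen after seeing the data, 33 regions (0.219%) and 2 members passed. Both were lower in c-Kit+, as 0.166% of all regions were. Those 2 were Has2 and the strongest Dlk1 region.

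Has2, the gene of the main hyaluronan synthase (chr15:56692289-56693685, promoter class), had 9.43 and 7.24 in Thy1+ WT and 13.2 and 10.2 in Thy1+ KO, against 5.13 in c-Kit+ WT replicate 1 and no call in the other 3 c-Kit+ libraries. Every Thy1+ value was above the c-Kit+ value. These 4 Thy1+ calls are also what met the rule, so the difference is given without a test. The nearest adult peak was 89757 bp away, and its median of 9.43 was the highest of all members.

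On the other side stood Actr3b, for a protein related to the actin-nucleating Arp3, Dync1i1, for a dynein intermediate chain, Ppap2a, for a lipid phosphatase, and Slc6a15, for an amino acid transporter. Each was called in all 4 c-Kit+ libraries and in 0 or 1 of the Thy1+ ones, met the rule through c-Kit+ and is described without a test. The Actr3b region (chr5:25848312-25849171, exon) had 9.12 and 4.96 in c-Kit+ WT, 8.51 and 4.66 in c-Kit+ KO and 3.54 in Thy1+ KO replicate 1, the lowest of the 5. The Slc6a15 region (chr10:103368535-103369360, promoter) had 6.27 and 6.82 in c-Kit+ WT and 8.51 and 5.25 in c-Kit+ KO, and was called in Thy1+ KO replicate 1 alone among the Thy1+ libraries, at 6.08. That value lay inside the c-Kit+ range. The Ppap2a region (chr13:112862256-112863098, intron) was called at 5.13 and 6.20 in c-Kit+ WT and 6.15 and 5.83 in c-Kit+ KO, and in no Thy1+ library, with an adult peak 524 bp away.

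**Figure D5:**
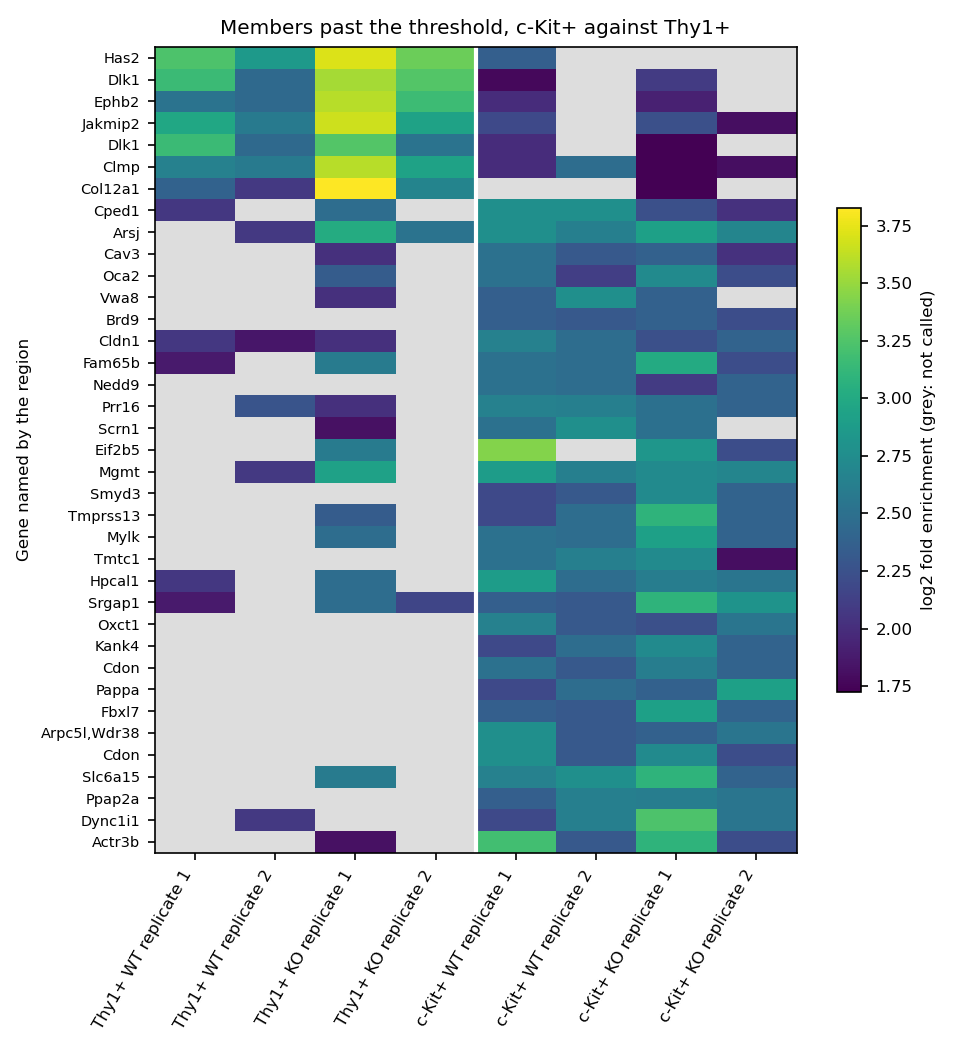
Log2 fold enrichment (colour, grey where no peak was called) of the 37 members that passed in the c-Kit+ against Thy1+ comparison with missing values filled (y axis, gene named by the region), in the 4 Thy1+ and 4 c-Kit+ libraries (x axis). The 7 members lower in c-Kit+ are at the top, and without centring Has2 and 1 Dlk1 region alone passed.

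As plain calls, 41 of the 254 members called in 4 libraries were called in all c-Kit+ and no Thy1+ library (16.1%), and 18 the other way round (7.09%). Among 1408 regions with an adult call that were also called in exactly 4 of the 8, these shares were 13.1% and 4.26%.

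Between genotypes, members were more often called in KO than in WT libraries, as were regions with an adult call. No member passed the threshold in the test. Of the 441 members called in 4 to 7 libraries, 237 (53.7%) were called in more KO than WT libraries and 35 (7.94%) in more WT libraries. Of 5125 regions with an adult call and as many calls, 57.5% and 15.8% were, and the KO libraries had 21286 to 36362 peaks against 17877 to 29794 in WT. All 4 KO libraries and no WT library held 8 members (3.15% of the 254 called in 4, beside 2.06% of the 1408 regions with an adult call), among them the Col5a2 promoter (chr1:45502300-45503161) at 7.09 and 4.48 in Thy1+ KO and 5.67 and 6.41 in c-Kit+ KO. The reverse pattern held for 0 members. All 4 libraries numbered replicate 1 and none numbered 2 held 16 members (6.30%, beside 7.17%), and the reverse 0. Of the 454 members, 446 were called in at least 1 WT library.

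In the limma fit of KO against WT, 0 of the 9502 regions (0.0%) and 0 of the 13 members had an adjusted p under 0.05, while 493 regions and 2 members had an unadjusted p under 0.05. The member with the lowest p was Ephb2 at -0.43 ± 0.153 (log2 KO over WT, SE, limma adjusted p = 0.868), followed by Cdh11 at -0.36 ± 0.165 (adjusted p = 0.900) and Arnt2 at -0.28 ± 0.185 (adjusted p = 0.951). These are changes relative to the median region, which was 0.27 higher in KO libraries, and without centring they were -0.16, -0.09 and -0.01. The mean fold enrichment was higher in KO at Cdh11 (6.96 against 6.77 in WT) and at Arnt2 (5.57 against 5.50), so no direction is given for these 2. With missing values filled, 0 of 15079 regions and 0 of 454 members passed, and 783 and 33 had an unadjusted p under 0.05.

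No genotype by cell type interaction was called either (limma, 0 of 9502 regions, 0.0%, and 0 of 13 members, with 454 and 3 at an unadjusted p under 0.05). Arnt2 had an interaction of 0.77 ± 0.341, Arhgef26 of -0.75 ± 0.327 and Cdh11 of -0.73 ± 0.305 (log2, SE, limma adjusted p = 0.997 for each), and without centring these were 0.32, -1.19 and -1.17. On data simulated from the 9502 regions, the fit recovered 86% of changes of 1 on the log2 scale for genotype and for cell type. For the interaction it recovered 16%, so most interactions of 1 or less would be missed. The simulation had no calling limit and only 13 members are among the 9502, so these shares do not describe the members.

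The targeted gene gave no check of the genotype labels. Scml2 (+ strand of the X chromosome, from 161162772 to 161258213) held 2 members of the exon class, both under 300 bp. The shorter (chrX:161178036-161178240, 205 bp, the narrowest of all members) was called in Thy1+ WT replicate 2 at 4.22, c-Kit+ WT replicate 1 at 5.70, Thy1+ KO replicate 2 at 5.76 and c-Kit+ KO replicate 1 at 5.20. The other (chrX:161237482-161237759, 278 bp) was called in 7 libraries at 3.78 to 9.05. Both genotypes had both regions. The Scml2 promoter was called in Thy1+ KO replicate 1 at 6.08, in c-Kit+ KO replicate 1 at 4.26 and in PS at 3.81 and 5.33. It was called in no WT library, no other KO spermatogonial library and no RS library. The spermatogonial libraries with that call were those with the most peaks, and peaks do not measure the transcript or protein.

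At the edges of the rule, the number of calls and not their strength set which regions were kept. The lowest medians among members called in 4 libraries were 3.54 at Megf6 and 3.61 at Slc25a26. Outside it, regions called in only 3 libraries reached medians of 7.67 at Bhlhe22 and 6.84 at Basp1. Regions called in all 8 but also in 1 adult library reached 8.19 upstream of Inf2, where the adult value was 3.73, and 6.61 at the Col6a2 promoter, where it was 3.52. A further 11 regions met the other criteria but overlapped an input peak, among them one at Slc24a5 with a median of 5.63.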

How the data were processed

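H3K27ac and input libraries were grouped by their titles, and 28 peak tables, 1 per library, were used. Per the submitters' processing notes, Bowtie, MACS2 and mm10 were used, and their versions are not given in the sources used here. Per the file headers, each peak has a position, a signal height (pileup) at its summits, a fold enrichment (a ratio to the background), −log10 p and −log10 q. The deposited fold enrichment equalled (height + 1)/(background + 1), with a background that varied by at most 1.00002 times within a library, so it held no input correction. Background height, which rises with depth, was 0.564 to 1.11 in the spermatogonial and 0.849 to 1.62 in the adult H3K27ac libraries. The tables give no read counts, so no interval that needs them was computed.

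Peaks sharing at least 1 bp were merged, and each library was given the highest fold enrichment among its peaks in a region. Regions called in all 8 spermatogonial libraries were fitted on the log2 scale, each library centred on its median, with limma 3.58.1 (R 4.3.3) and Benjamini-Hochberg adjustment over all regions. The fit was tested on simulated data. The remaining steps ran in Python 3.11.15 with pandas 2.3.3 and numpy 2.4.6, and plots were drawn with matplotlib 3.10.9. Genes are those named by the authors' tables at the highest peak.

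The members and the gene lists were chosen with earlier results of these data known. Regions named are the 12 strongest called in all 8 libraries, those over 1000 bp from a start, up to 4 per gene list, up to 6 past the threshold (or the 3 with the lowest p) in each fit, 5 genes with the most members and those at the edges of the rule. Alternatives covered the calling rule, peak strength, joining, normalization, missing values, the replicate number as a block and leaving out each library.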

Additional observations from a re-analysis of the deposited data

How the results depend on the processing

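The number of members (454) was 1055 with calls in at least 3 libraries, 98 in at least 6 and 13 in all 8, 87 with spermatogonial calls of fold enrichment 5 or more, 1351 with the 17877 strongest peaks of each library (which overlapped 179 of the 454) and 1811 with calls in at least 2 of the 4 KO libraries. Without 1 library it ranged from 250 to 605, and was 250 without c-Kit+ KO replicate 1, 270 without Thy1+ KO replicate 1 and 277 without c-Kit+ WT replicate 1. In the order at least 6, all 8, fold 5, strongest peaks and KO, the matrix genes with a member (11) were 5, 1, 7, 20 and 18, and in the order at least 3, at least 6, all 8, joined within 1000 bp, strongest peaks and KO, the interstitial markers (4) were 7, 2, 0, 2, 7 and 7. Matrix genes ranged from 6 to 14 without 1 library (6 without Thy1+ KO replicate 1, 7 without replicate 2) and interstitial markers from 3 to 5. Stem and progenitor genes (0) were 1 under the KO setting and 0 under all others. These list counts were chosen after seeing the data.

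Regions called between c-Kit+ and Thy1+ (103) were 66 with quantile normalization, 762 with missing values filled, 68 with peaks of fold 5 or more, 158 without input overlap, 0 without centring and 33 without centring but filled. Without 1 library they ranged from 5 (without Thy1+ WT replicate 1) to 150, and were 35, 36, 29 and 35 without c-Kit+ WT replicate 2, Thy1+ KO replicate 1, c-Kit+ KO replicate 1 and c-Kit+ KO replicate 2. Members called (0) were 37 filled, 2 filled without centring, 2 with peaks joined, and 0 to 2 without 1 library. Clmp passed filled (adjusted p = 0.0419), joined (0.045) and without c-Kit+ WT replicate 2 (0.0273). KO against WT stayed at 0 in every setting run, and the interaction was 0 to 1 without 1 library (1 without Thy1+ WT replicate 1).

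Same-numbered libraries deviated together with correlations of 0.0459 to 0.16 over 6 pairs of groups, weak but all positive. Whether same-numbered libraries shared a preparation was not tested. With the replicate block, 205 regions and 1 member (Clmp, adjusted p = 0.0362) were called between cell types, and 0 for genotype and interaction. Heights of 5 to 27 fragments limit every value, and signal below the lowest called peak was not detectable.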
